A study of Homo sapiens with 6 samples.

Results

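Histone genes were represented by 81 of the 22283 probe sets on the array, listed for 67 of 13119 genes. They are every probe set with a platform symbol of 2 kinds. Cluster probe sets, as called here, have symbols named like the replication-dependent histone clusters (62 probe sets). Going by symbol, they include H2BC12L, which lies on chromosome 21, and the testis gene H1-6. The others are those of the variants H1-10, H2AX, H2AZ1, H2AZ2, H3-3A and H3-3B (19 probe sets). Of all 81, 53 carried 1 symbol and 28 several, up to 14 on 1 probe set. The cells were Hs578T, an established human breast cancer line, with HOXA5, a gene for a homeobox transcription factor, under inducible control. RNA was taken uninduced (0 h) and at 6 h and 9 h of induction in each of 2 experiments, 1 array per time and experiment, so each of the 3 groups held 2 arrays. The labels give the experiments as 2 batches of RNA and no further replication, so p-values measure the spread between these 6 arrays, which may be technical. The sources used here do not name the inducing agent, nor say whether the line is a single clone. No uninduced array at 6 h or 9 h was used here, so time in culture, the agent and HOXA5 cannot be told apart, and HOXA5 itself is named by 0 probe sets of the probe table used here. In RNA from a whole culture, fewer cells making a transcript and less of it per cell cannot be told apart either.

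Histones are the proteins around which DNA is wound: H2A, H2B, H3 and H4 form the core of the nucleosome and H1 binds the linker DNA. Most cluster genes are switched on in S phase, together with DNA replication. Most of their mRNAs end in a stem-loop in place of a poly(A) tail. RNA methods that start from a poly(A) tail therefore catch them poorly. Variant genes are mostly expressed throughout the cell cycle from polyadenylated mRNAs; H2AX makes both a stem-loop mRNA and a longer polyadenylated one. The H2AX protein is phosphorylated at DNA breaks, H2A.Z is placed at promoters, and H3.3 replaces H3 outside replication.

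The sequences upstream of 5 histone genes show motifs that set H4 genes apart from H2B genes, and belong to genes that the values below turn on. H4C5, H2AX and H2AZ2 hold the probe sets with the widest shared shifts at 9 h among single-symbol members that were measured above the floor (explained below) in every array. H4C8 has the motifs of H4C5 at the same distances from its start, and H2BC12 shows the H2B pattern. Each is the 250 bases before the start of the gene in RefSeq (GRCh38.p14), 5′ to 3′ on the strand of the gene. Capitals mark letters searched on both strands. TATAAA and likewise TATAAG stand for the TATA box. CCAAT stands for the CCAAT box, which reads ATTGG on the other strand. Part of the H4 element that the factor HINFP binds is GGTCCG, and ATTTGCAT is the octamer bound by POU2F1 in H2B genes. In H2AX and in the distal part of H2BC12, TATA letters of both strands overlap.
H4C5 (chr6:26204360-26204609, + strand): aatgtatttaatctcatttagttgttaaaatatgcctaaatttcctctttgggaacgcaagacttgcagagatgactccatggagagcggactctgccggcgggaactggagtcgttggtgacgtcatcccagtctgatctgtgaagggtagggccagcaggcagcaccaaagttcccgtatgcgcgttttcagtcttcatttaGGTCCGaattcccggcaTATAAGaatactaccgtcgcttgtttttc
H4C8 (chr6:26285535-26285784, - strand): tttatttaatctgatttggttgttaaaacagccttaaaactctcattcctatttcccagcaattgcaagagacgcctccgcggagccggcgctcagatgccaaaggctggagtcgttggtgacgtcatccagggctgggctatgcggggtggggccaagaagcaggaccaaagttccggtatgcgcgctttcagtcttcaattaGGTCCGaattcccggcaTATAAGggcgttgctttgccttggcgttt
H2BC12 (chr6:27146859-27147108, - strand): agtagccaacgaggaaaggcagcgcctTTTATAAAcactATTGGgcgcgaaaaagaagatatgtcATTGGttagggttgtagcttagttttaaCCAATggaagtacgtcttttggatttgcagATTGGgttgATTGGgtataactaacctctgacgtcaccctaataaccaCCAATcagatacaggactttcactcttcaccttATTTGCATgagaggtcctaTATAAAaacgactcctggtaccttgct
H2AX (chr11:119095466-119095715, - strand): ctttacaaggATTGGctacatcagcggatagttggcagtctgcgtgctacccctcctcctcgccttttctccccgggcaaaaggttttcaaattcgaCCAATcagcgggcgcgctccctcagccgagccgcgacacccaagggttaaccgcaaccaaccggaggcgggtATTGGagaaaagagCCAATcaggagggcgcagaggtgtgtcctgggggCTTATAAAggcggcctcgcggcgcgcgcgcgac
H2AZ2 (chr7:44848088-44848337, - strand): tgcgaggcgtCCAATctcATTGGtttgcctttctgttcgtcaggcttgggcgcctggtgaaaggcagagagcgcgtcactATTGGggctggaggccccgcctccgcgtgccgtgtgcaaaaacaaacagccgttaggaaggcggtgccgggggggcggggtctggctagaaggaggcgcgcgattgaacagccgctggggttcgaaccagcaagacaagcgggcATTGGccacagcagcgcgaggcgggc

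GGTCCG occurred upstream of 6 of the 7 H4 genes with a single-symbol probe set and an upstream sequence, or 85.7%, where the share was 9.33% of all 27305 genes with such a sequence. ATTTGCAT occurred upstream of 8 of the 11 H2B genes (72.7%), against 1.66% of all. CCAAT was found in 33 of 38 cluster genes (86.8%) and in 4 of 5 variant genes (80.0%), against 9021 of the 27305, and TATAAA in 25 of the 38 (65.8%) and 3 of the 5 (60.0%), against 11.1%. A match describes the letters in the window and is not a site shown to be used.

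Arrays differed in brightness, with deposited medians between 18.7 and 95.7 intensity units, so the values below are quantile normalised and relative to the whole array. In unscaled values the median of all tested probe sets shifted by -1.34 on the log2 scale at 6 h and by -0.56 at 9 h against 0 h. Of 9 markers of a mesenchymal-type breast line 8 were above the floor in all 6 arrays, VIM between 4282 and 7670 normalised units. The epithelial genes EPCAM and KRT19 were at the floor throughout, while 3 of 6 luminal markers, GATA3 (114 to 193) among them, exceeded the floor in all arrays, as did 1 of 3 leukocyte, 1 of 3 endothelial and 1 of 2 erythroid or hepatic markers. These last were CD3D (15.4 to 40.1 units), PECAM1 (28.3 to 46.3) and HBB (48.7 to 84.7). A reading above the floor at such levels need not mean that a gene is expressed, and many cluster probe sets read in this range. RNA quality was read from probes at both ends of GAPDH: the 3' signal over the 5' signal was 0.863 and 0.975 at 0 h, then 0.910 and 1.09 at 6 h, then 1.31 and 1.12 at 9 h (experiments 1 and 2). The like ratio of ACTB lay between 0.918 and 1.09 at 0 h and 6 h and was 1.82 and 1.06 at 9 h.

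Against the whole array, changes of the tested cluster probe sets centred slightly above 0 at both times after induction. Their centre was 0.00 in experiment 2 at both times. With untested cluster probe sets kept, most of them at the floor in all arrays, it was 0.04 at 6 h and 0.03 at 9 h. Changes of the tested variant probe sets centred slightly below 0 at both times. No histone probe set passed the test. At 9 h the widest shifts shared by both experiments were, on the higher side, those of H4 probe sets, some at the floor at 0 h. On the lower side they were those of H1-2 and of 1 probe set each of H2AX and H2AZ2, whose other probe sets shifted less. Of the H3.3 probe sets, 1 set was higher at 9 h in both experiments, while most of another set were lower. The floor was 12.7 units, the 25th percentile of all normalised values, and a probe set was tested if at least 2 of the 6 arrays exceeded it. That held for 62 members, 44 of the 62 cluster probe sets and 18 of the 19 variant ones. All 18 tested variant probe sets were above the floor in every array, against 18 of the tested cluster ones. Among the 19 untested members 13 were at the floor in all arrays, among them the probe sets of the linker genes H1-1, H1-4 and H1-5 and of H3C1, H3C2 and H3C3, and 6 exceeded it in 1 array. Counts over the tested members leave these out. A member at the floor in both 0 h arrays could be tested only through its induced arrays. It could not come out lower than at 0 h. The reverse held for members at the floor in every induced array.

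By limma 0 histone probe sets had an adjusted p under 0.05 at 6 h or 9 h against 0 h, nor did any other probe set (0.0% of 18360 in each comparison). At an unadjusted p under 0.05 there were 3 histone probe sets of 62 at 6 h, where all probe sets gave 4.77%, and 5 at 9 h, where all gave 7.41%. Fitting the experiment as a term gave 0 histone probe sets with an adjusted p under 0.05 at 6 h (0.0% of all) and 0 at 9 h (0.359% of all), and 8 at an unadjusted p under 0.05 at each time (9.7% and 13.9% of all). For both induced times together against 0 h, 0 histone probe sets passed in either fit, beside 0.0% and 0.163% of all. There 5 had an unadjusted p under 0.05 without that term (6.19% of all) and 9 with it (12.3% of all). Groups did not overlap for 9 histone probe sets higher and 10 lower at 6 h, beside 16.1% and 16.2% of all, and for 13 higher and 11 lower at 9 h, beside 18.3% and 19.1% of all. The lowest adjusted p of a histone probe set by limma with the experiment as a term was 0.0562, for 1 probe set of H2AZ2 at 9 h. The comparisons of 6 h and of 9 h share the 0 h arrays.

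The median log2 change of the tested cluster probe sets was 0.13 at 6 h (0.10 in experiment 1, 0.00 in experiment 2) and 0.25 at 9 h (0.28 and 0.00), where all tested probe sets had -0.00 and -0.02. At 9 h 14 of 44 were higher and 6 lower in both experiments, where all tested probe sets gave 26.9% and 28.9%. The cluster counts at 6 h were 11 higher and 8 lower, where all gave 25.3% and 25.8%. With all 62 cluster probe sets kept, many of them at the floor, the medians were 0.04 and 0.03. Of the 18 untested ones 13 were at the floor in all arrays, where the change is 0. The 18 cluster probe sets above the floor in every array had medians of 0.26 at 6 h (0.27 and 0.00 by experiment) and 0.33 at 9 h (0.56 and -0.00). The 18 tested variant probe sets had medians of -0.19 at 6 h (-0.03 and -0.30 by experiment) and -0.32 at 9 h (-0.06 and -0.60). Of these, 4 were higher and 7 lower in both experiments at 6 h, and 4 and 8 at 9 h. The shift of the variants at 9 h was mostly that of experiment 2, and leaving out the 9 h array of experiment 2 gave a median of -0.08.

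**Figure D1:**
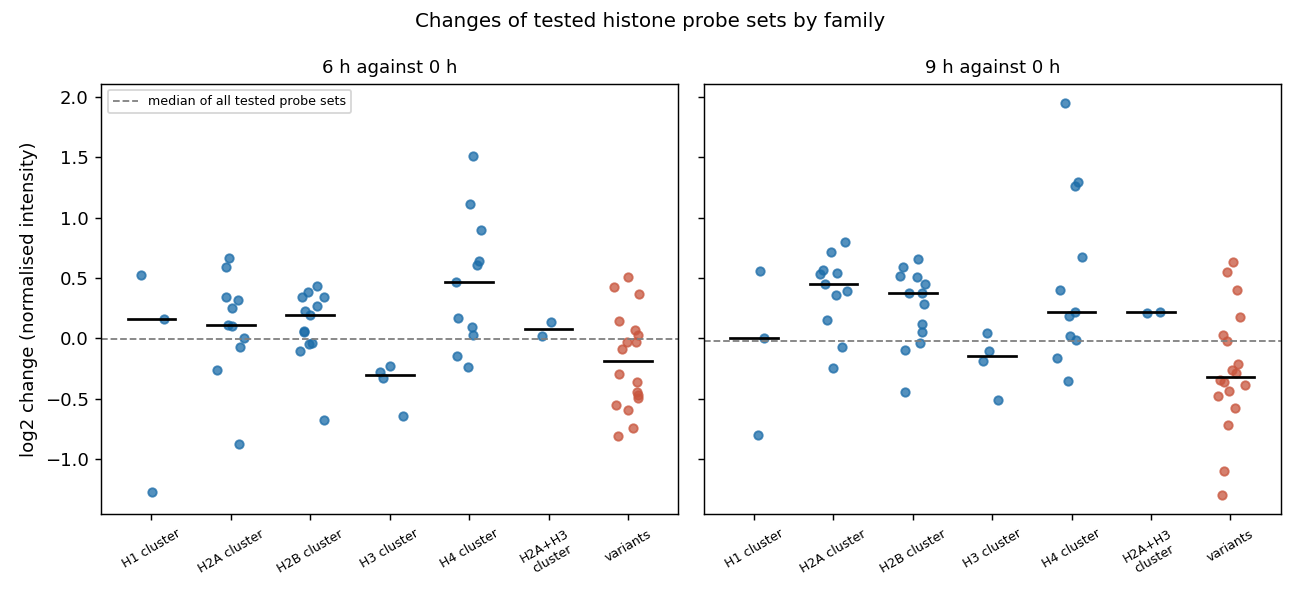
Log2 change of each tested histone probe set at 6 h (left) and 9 h (right) against 0 h, with cluster probe sets in blue by family and variants in red; black bars are medians and the dashed line is the median of all tested probe sets. The H4 probe sets reach the highest changes, up to 1.95 at 9 h for H4C11, which lay at the floor at 0 h. Among cluster probe sets above the floor in every array the highest at 9 h is 1.30. The variant median lies at -0.32 at 9 h.

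Among H4 genes, whose protein pairs with H3 at the centre of the nucleosome, H4C5 had the clearest shift. Its normalised intensity was 29.6 and 23.0 at 0 h, then 50.8 and 62.4 at 6 h, then 60.8 and 67.8 at 9 h, in experiments 1 and 2. Every induced array lay above both 0 h arrays. Its highest reading, 67.8, was below the highest of the erythroid marker HBB, 84.7. The log2 change was 1.11 ± 0.43 at 6 h and 1.30 ± 0.43 at 9 h (standard error, n = 2 arrays per group), or 2.46-fold at 9 h, with a limma adjusted p of 0.617 at 9 h, or 0.252 when the experiment was a term. The probe set listed as H4C11, chosen after its values were seen, lay at the floor at 0 h in both experiments, read 22.3 and 59.4 at 6 h, then 56.4 and 42.8 at 9 h. That is at least 2.86-fold higher at 6 h and at least 3.86-fold higher at 9 h than the floor (limma adjusted p = 0.577 at 9 h, and 0.166 when the experiment was a term). Its accession belongs to H4C12 in RefSeq, the 1 case of 37 in which symbol and accession differed, and H4 genes share nearly the same coding sequence, so which H4 gene it reads is uncertain.

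A probe set shared by several H4 genes, likewise chosen after its values were seen, lay at the floor at 0 h in both experiments, read 44.4 at 6 h in experiment 1 and the floor in experiment 2, and 24.8 and 37.4 at 9 h, at least 2.40-fold higher at 9 h. Another shared H4 probe set read 278 and 324 at 0 h, then 414 and 506 at 6 h, then 379 and 306 at 9 h, a log2 change of 0.61 ± 0.27 at 6 h and 0.18 ± 0.27 at 9 h. Its 6 h arrays lay above both 0 h arrays and only 1 of its 9 h arrays did. H4C8, whose upstream region resembles that of H4C5, was at the floor at 0 h in experiment 1 and read 40.1 in experiment 2; the values were the floor and 41.6 at 6 h, and 27.1 and 48.2 at 9 h. Its log2 change at 9 h was 0.68 ± 0.76, and the groups overlapped. H4C4 read 43.3 and 43.5 at 0 h, then 66.1 and 54.4 at 6 h, then 40.0 and 28.7 at 9 h, above the 0 h arrays at 6 h and below them at 9 h (log2 changes of 0.47 ± 0.43 and -0.36 ± 0.43). H4C7 stayed between 16.7 and 24.0 in all 6 arrays. Of the 11 tested H4 probe sets 4 were higher and 1 lower in both experiments at each time. Their medians were 0.47 at 6 h (0.61 in experiment 1, 0.00 in experiment 2) and 0.22 at 9 h (0.45 and 0.04). Over all tested probe sets the shares were 25.3% and 25.8% at 6 h, and 26.9% and 28.9% at 9 h. H4C11 and the shared probe set at the floor at 0 h are among those higher at 9 h, and could not come out lower. H4C11 is also among those higher at 6 h, where the same limit holds.

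**Figure D2:**
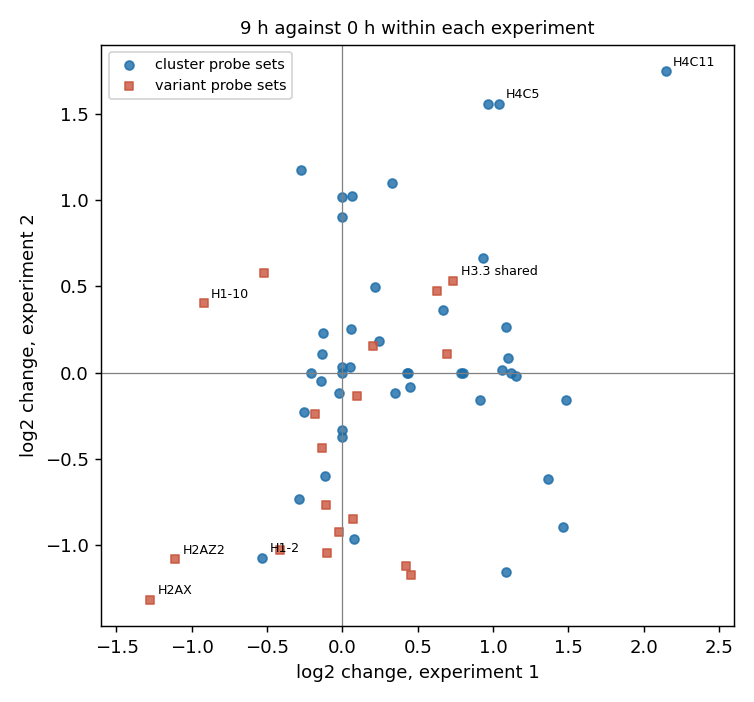
Log2 change at 9 h against 0 h of each tested histone probe set in experiment 1 (x axis) and experiment 2 (y axis), blue circles for cluster and red squares for variant probe sets. The probe sets named H4C5 and H4C11 lie high in both experiments, H2AX and H2AZ2 have 1 probe set each that lies low in both, and points in the lower right are higher in experiment 1 and lower in experiment 2.

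H2A cluster probe sets, which read a partner of H2B, had 6 members higher and 2 lower in both experiments at 9 h among 11 tested, with a median of 0.45, beside 26.9% and 28.9% of all probe sets. At 6 h the counts were 2 and 3, beside 25.3% and 25.8% of all, and the median was 0.11. Among those higher at 9 h, 1 probe set was at the floor at 0 h and 6 h and read 13.22 and 15.15 at 9 h. It was tested only through its 9 h arrays, so it could not come out lower. The 2 that were lower at 9 h lay at or near the floor in all arrays, between 12.7 and 15.5. H2AC14 read 54.4 and 43.0 at 0 h, then 60.7 and 96.5 at 6 h, then 57.0 and 87.4 at 9 h, a log2 change of 0.66 ± 0.47 at 6 h and 0.54 ± 0.47 at 9 h. All of its induced arrays exceeded the 0 h arrays, in experiment 1 by little. H2AC25, which lies on chromosome 1 apart from the main cluster on chromosome 6, read 87.1 and 90.6 at 0 h, then 129.5 and 86.1 at 6 h, then 109 and 194 at 9 h, with a change of 0.72 ± 0.43 at 9 h. A probe set shared by a pair of H2A genes read 45.2 and 68.2 at 0 h, then 58.7 and 81.4 at 6 h, then 86.1 and 108 at 9 h (0.80 ± 0.44 at 9 h). In both, the 9 h arrays exceeded the 0 h arrays. Another of the same pair of genes was at or near the floor throughout, between 12.7 and 15.5, with a change of -0.24 ± 0.27 at 9 h, and 1 more had 0.57 ± 0.44 with opposite signs in the experiments.

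The time course of H2AC6 had its low point at 6 h. It read 45.2 and 51.4 at 0 h, then 17.1 and 40.4 at 6 h, then 94.2 and 51.9 at 9 h, a log2 change of -0.88 ± 0.57 at 6 h and 0.54 ± 0.57 at 9 h. Without the array of experiment 1 at that time these were -0.26 and 0.11. Between 9 h and 6 h it had a change of 1.41 ± 0.57, with a limma adjusted p of 0.932. It was the 1 histone probe set with an unadjusted p under 0.05 in that comparison, beside 5.27% of all, and there was also 1 when the experiment was a term, beside 9.24%. No histone probe set passed for 9 h against 6 h, without the experiment as a term or with it (0.0% of all in each). Of the 62 tested members 14 were higher and 12 lower at 9 h than at 6 h in both experiments (27.1% and 25.9% of all), and the groups did not overlap for 9 higher and 7 lower (14.9% and 15.1% of all).

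Of 13 tested H2B cluster probe sets, 4 were higher, 2 lower and 4 opposite in the experiments at 6 h. At 9 h 2 were higher, 1 lower and 8 opposite, where 6646 of all 18360 were opposite, with medians of 0.66 in experiment 1 and -0.12 in experiment 2. Over all tested probe sets 25.3% were higher and 25.8% lower in both experiments at 6 h, and 26.9% and 28.9% at 9 h. H2BC12 read 137 and 180 at 0 h, then 121 and 176 at 6 h, then 174 and 166 at 9 h, and H2BC21 lay between 48.9 and 57.3 in all arrays. H2BC21 is known to give polyadenylated transcripts in differentiated cells. H2BC6 read 34.1 and 55.3 at 0 h, then 52.2 and 52.8 at 6 h, then 73.1 and 58.6 at 9 h (0.59 ± 0.45 at 9 h). The probe sets of H2BC5 disagreed at 6 h. Probe set A read 82.9 and 121 at 0 h, then 89.3 and 180 at 6 h, then 131 and 155 at 9 h, with changes of 0.34 ± 0.45 and 0.51 ± 0.45. Probe set B read 35.0 and 80.0 at 0 h, then 21.4 and 51.1 at 6 h, then 65.7 and 71.5 at 9 h, with changes of -0.68 ± 0.61 and 0.38 ± 0.61. H2BC13 was at the floor at 0 h in experiment 1 and had a change of 0.34 ± 0.51 at 6 h. In all, 14 cluster probe sets are of the kind whose probes match several transcripts.

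Linker and H3 cluster probe sets were mostly near or at the floor. The linker gene H1-2, one of the main H1 genes of dividing cells, read 56.4 and 51.4 at 0 h, then the floor and 39.2 at 6 h, then 39.0 and 24.4 at 9 h. Every induced array lay below both 0 h arrays, with log2 changes of -1.27 ± 0.61 at 6 h and -0.80 ± 0.61 at 9 h and a limma adjusted p of 0.826 at 9 h. The change was -0.46 at 6 h without the 6 h array of experiment 1 and -0.47 at 9 h without the 9 h array of experiment 2. H1-6, the linker histone of the testis and named after its values were seen, read 18.1 and 18.6 at 6 h and the floor in the other 4 arrays. Among 4 tested H3 probe sets of the cluster 1 was higher and 1 lower in both experiments at 9 h, beside 26.9% and 28.9% of all. H3C7 read 15.6 and 24.0 at 0 h, then the floor and 20.0 at 6 h, then the floor and 14.5 at 9 h (-0.51 ± 0.38 at 9 h), and H3C6 had changes of -0.33 ± 0.62 at 6 h and 0.04 ± 0.62 at 9 h.

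Among variants, H2AZ2, which encodes an H2A.Z protein, had the lowest adjusted p of all histone probe sets once the experiment was a term, on its probe set A (letters follow the order of the identifiers). It read 1191 and 866 at 0 h, then 736 and 499 at 6 h, then 552 and 408 at 9 h. Each induced array lay below both 0 h arrays, and the order of the times was alike in both experiments. The log2 change was -0.74 ± 0.31 at 6 h and -1.10 ± 0.31 at 9 h, or 2.14-fold lower at 9 h (limma adjusted p = 0.577, or 0.0562 when the experiment was a term). A second probe set (probe set B) read 683 and 857 at 0 h, then 743 and 759 at 6 h, then 600 and 727 at 9 h, with changes of -0.03 ± 0.24 and -0.21 ± 0.24. The other (probe set C) read 274 and 441 at 0 h, then 276 and 535 at 6 h, then 249 and 325 at 9 h, with changes of 0.15 ± 0.41 and -0.29 ± 0.41. All 3 were lower at 9 h than at 0 h within each experiment, with log2 changes in experiment 1 of -1.11, -0.18 and -0.14, but they disagree on the size.

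H2AX also showed a disagreement between probe sets, here of unlike levels of signal. Its probe set A read 890 and 764 at 0 h, then 1026 and 291 at 6 h, then 368 and 306 at 9 h. Both 9 h arrays lay below both 0 h arrays, and at 6 h only that of experiment 2 did. The log2 change was -1.30 ± 0.54 at 9 h, 2.46-fold lower, with -1.28 and -1.32 in experiments 1 and 2 (limma adjusted p = 0.669, or 0.163 when the experiment was a term), and -0.59 ± 0.54 at 6 h, which was 0.32 without the 6 h array of experiment 2. Another probe set (probe set B) read 59.1 and 79.7 at 0 h, then 123 and 77.8 at 6 h, then 62.1 and 44.2 at 9 h (-0.39 ± 0.45 at 9 h). The third (probe set C) read 78.7 and 63.0 at 0 h, then 79.4 and 68.7 at 6 h, then 54.9 and 94.0 at 9 h (0.03 ± 0.44 at 9 h), and the fourth exceeded the floor in 1 array and was not tested. Probe sets B and C read far lower than A, near the range of the erythroid marker HBB (48.7 to 84.7). The 3' to 5' ratio of GAPDH was higher in the 9 h arrays than in the 0 h arrays, as given above, and its part in the differences between probe sets of a gene was not tested.

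H2AZ1, the other H2A.Z gene, differed between the experiments. One probe set (probe set A) read 1313 and 2461 at 0 h, then 976 and 1074 at 6 h, then 1800 and 1090 at 9 h, with changes of -0.81 ± 0.37 at 6 h and -0.36 ± 0.37 at 9 h. Its 6 h arrays lay below both 0 h arrays, whereas at 9 h it was higher in experiment 1 and lower in experiment 2. The other probe set (probe set B) read 1542 and 1692 at 0 h, then 1901 and 831 at 6 h, then 1514 and 890 at 9 h, with changes of -0.36 ± 0.42 and -0.48 ± 0.42. The linker variant H1-10 read 200.4 and 295 at 0 h, then 225 and 272 at 6 h, then 106 and 390 at 9 h. Its changes at 9 h were opposite in the experiments, -0.92 and 0.40.

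**Figure D3:**
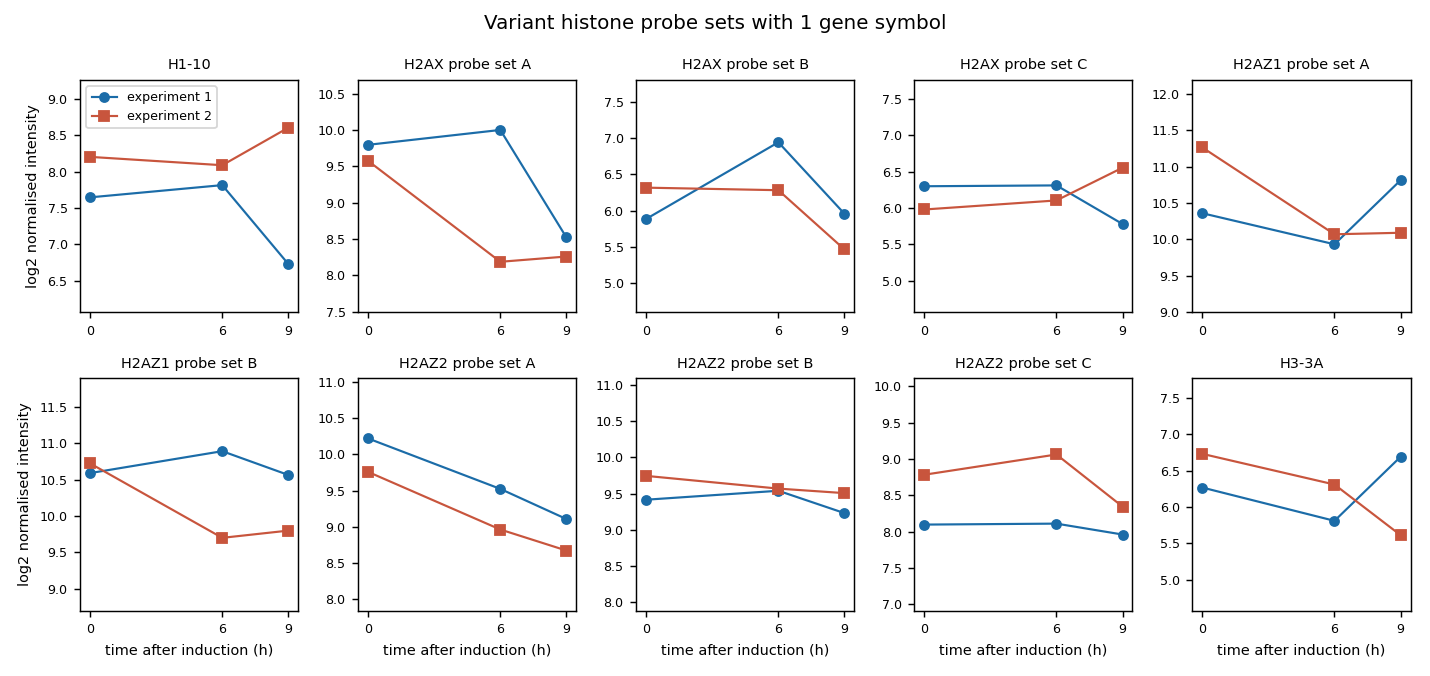
Log2 normalised intensity of the 10 tested variant probe sets with 1 symbol at 0, 6 and 9 h, experiment 1 in blue circles and experiment 2 in red squares, all panels spanning the same range. The H2AZ2 probe set A is lower at each later time in both experiments, while the other 2 probe sets of the gene shift by less, and H2AX probe set A is low at 9 h in both.

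H3.3 is encoded by the genes H3-3A and H3-3B, and 8 probe sets were listed with both symbols, so none is named for either gene. They fall into sets by the further symbol listed with them: 4 with H3P6, a pseudogene with the older name H3F3AP4, and 4 with MIR4738, a microRNA gene next to H3-3B on chromosome 17. At 9 h all 4 probe sets listed with MIR4738 were higher than at 0 h in both experiments, beside 26.9% of all tested probe sets. Of the 4 listed with H3P6, 3 were lower in both at 9 h, beside 28.9% of all. At 6 h all 4 listed with H3P6 were lower in both experiments, beside 25.8% of all. None of the 8 passed the test. The 4 of a set are listed with the same genes, so they are not independent readings.

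In the set listed with MIR4738, the probe set A read 1254 and 1653 at 0 h, then 1722 and 1996 at 6 h, then 2090 and 2390 at 9 h. Every induced array exceeded both 0 h arrays, with log2 changes of 0.36 ± 0.23 at 6 h and 0.63 ± 0.23 at 9 h (limma adjusted p = 0.646 at 9 h, and 0.169 when the experiment was a term). The probe set D read 1238 and 2069 at 0 h, then 1739 and 2672 at 6 h, then 1911 and 2869 at 9 h, higher within each experiment though the groups overlap (0.43 ± 0.35 and 0.55 ± 0.35). The others had changes of 0.40 ± 0.40 (probe set C) and 0.18 ± 0.24 (probe set B) at 9 h.

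In the set listed with H3P6, the probe set F read 2692 and 2315 at 0 h, then 1889 and 1540 at 6 h, then 2023 and 1134 at 9 h. All induced arrays lay below both 0 h arrays, with changes of -0.55 ± 0.31 and -0.72 ± 0.31 (limma adjusted p = 0.674 at 9 h, and 0.175 when the experiment was a term). The probe sets H and G had changes of -0.44 ± 0.30 and -0.57 ± 0.38 at 9 h, and E had -0.02 ± 0.34. Without the 9 h array of experiment 2 the changes at 9 h were -0.30 for F, -0.06 for H and 0.016 for G. The single probe set named for H3-3A alone read 77.1 and 106 at 0 h, then 56.1 and 79.3 at 6 h, then 103 and 48.9 at 9 h. It was lower in both experiments at 6 h (-0.44 ± 0.50) and opposite in them at 9 h.

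The difference between the mean log2 values of the 2 sets is taken within an array and is little touched by the scaling. The MIR4738 set gained on the H3P6 set by 0.45 and 0.79 at 6 h and by 0.70 and 1.06 at 9 h, relative to 0 h in experiments 1 and 2, on the log2 scale of normalised values. In deposited values the gains were 0.43 and 0.85 at 6 h and 0.67 and 1.13 at 9 h. The sets were told apart by their annotation, and this comparison was made after their values were seen, so it is given as a description without a test. Of the 8 probe sets 4 are of the kind whose probes match several transcripts, 3 of them listed with H3P6.

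**Figure D4:**
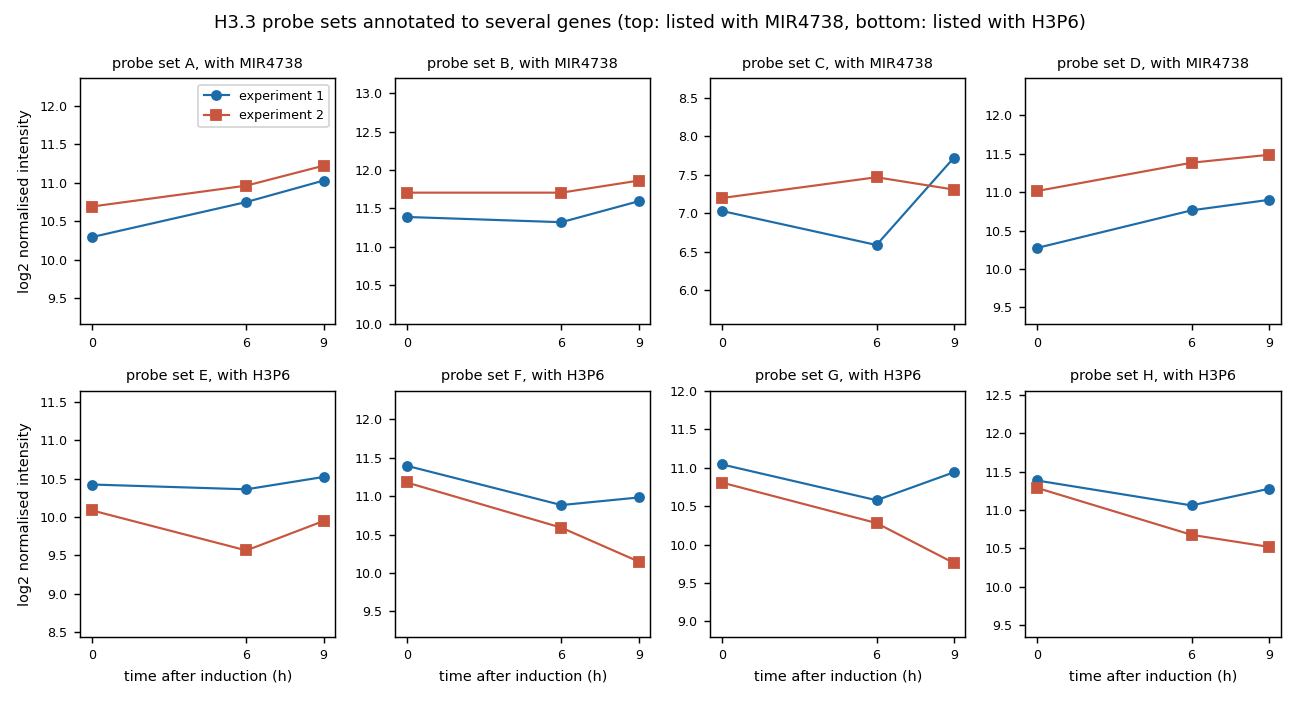
Log2 normalised intensity at 0, 6 and 9 h of the 8 H3.3 probe sets annotated to several genes, those listed with MIR4738 in the top row and those with H3P6 in the bottom row, experiment 1 in blue circles and experiment 2 in red squares. In the top row all 4 are higher at 9 h than at 0 h in both experiments, and in the bottom row 3 of the 4 are lower.

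Genes that make, process or place histones were read as lists. None of their members passed by limma without the experiment as a term. Each gene was read by its probe set of highest mean. Of the 37 genes of S phase and replication 36 were tested, and their median log2 change was 0.12 at 6 h but -0.30 at 9 h. At 9 h 4 were higher and 14 lower in both experiments, beside 26.9% and 28.9% of all probe sets. At 6 h the counts were 11 and 5, beside 25.3% and 25.8%. The largest shared changes at 9 h were those of RPA3, a subunit of the single-strand DNA binding protein (-1.39 ± 0.55), the helicase component GINS2 (-1.21 ± 0.45), RRM2 of ribonucleotide reductase (-0.83 ± 0.43, 1 of 2 probe sets of that sign) and the polymerase subunit POLA2 (-0.80 ± 0.42). Without the 9 h array of experiment 2 RPA3 had -0.69 and GINS2 -0.72, and without the 0 h array of experiment 2 RRM2 had -0.17 and POLA2 -0.42.

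Among histone chaperones, 26 of 28 were tested, with medians of 0.13 at 6 h and -0.05 at 9 h. At 9 h 6 were higher and 7 lower in both experiments, beside 26.9% and 28.9% of all probe sets. ASF1B, the H3-H4 chaperone of dividing cells, read 387 and 476 at 0 h, then 431 and 385 at 6 h, then 178 and 195 at 9 h. Both 9 h arrays lay well below all others, a change of -1.20 ± 0.27 (limma adjusted p = 0.543, and 0.0744 when the experiment was a term). ATRX, which places H3.3 in heterochromatin, had 0.67 ± 0.27 and all 4 of its probe sets had that sign. RBBP4, of the chromatin assembly complex, had -0.58 ± 0.26 (-0.36 without the 0 h array of experiment 1), and CABIN1, of the HIRA complex that deposits H3.3, -0.58 ± 0.45 (-0.05 without the 9 h array of experiment 1).

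For synthesis and processing of histone mRNA, 20 of 27 listed genes were tested, with medians of -0.07 at 6 h and -0.14 at 9 h. At 9 h 4 were higher and 7 lower in both experiments, beside 26.9% and 28.9% of all probe sets. By limma with the experiment as a term 1 rose and 0 fell at an adjusted p under 0.05, where 0.359% of all probe sets passed. The one that rose was TUT7, a terminal uridylyltransferase, an enzyme family that adds uridines to RNAs. It read 98.3 and 148 at 0 h, then 154 and 376 at 6 h, then 284 and 609 at 9 h, a log2 change of 1.78 ± 0.54 at 9 h (limma adjusted p = 0.596, and 0.0356 when the experiment was a term). Its relative TUT1 had 1.13 ± 0.52, with 1 of the 0 h arrays at the floor. The Sm proteins SNRPD3 and SNRPF, parts of the small nuclear ribonucleoproteins, had -1.22 ± 0.43 (-0.80 without the 9 h array of experiment 2) and -1.07 ± 0.29. Of 12 other histone and nucleosome genes 7 were tested, with medians of -0.01 at 6 h and -0.00 at 9 h, and the architectural protein HMGA1 had -0.59 ± 0.27 at 9 h (-0.31 without the 9 h array of experiment 1).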

How the data were processed

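The deposited values are 1 linear intensity per probe set and array; the sources used here do not give the software behind them, and the authors' values carry no scaling between arrays. Gene symbols came from the platform's table and were updated through Entrez numbers. Quantile normalisation of the 6 arrays was followed by a floor at the 25th percentile (12.7 units) and log2. Changes were estimated by limma 3.58.1 in R 4.3.3 (lmFit, then eBayes with trend, 3 residual degrees of freedom). At least 2 arrays above the floor were required, which left 18360 probe sets after 68 controls were set aside; Benjamini-Hochberg adjustment ran over all of them, with a threshold of 0.05. All tests are two-sided, and each ± is the standard error from the fit. The number of arrays limits the precision.

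Arrays of 1 experiment come from 1 batch of RNA per the labels, so the experiment pairs them. Deviations from the group means correlated at 0.247 between 0 h and 6 h, 0.336 between 0 h and 9 h, and 0.391 between the induced times. For the 6 h array of experiment 2 the lot given in the label is that of experiment 1; its title was followed. Data were simulated in 5 runs of 18360 probe sets, with 200 changed at 9 h. Each simulated probe set was given an experiment effect and a spread estimated from these arrays, and no floor was applied. Log2 changes of 1 were recovered in 0% of cases when the experiment was left out and 8.8% when it was fitted. For log2 changes of 2 the shares were 7.1% and 80.8%. False calls per run were 0 and 1.6 for changes of 1, and 0 and 10.4 for changes of 2. Because an experiment effect was built in, these shares cannot decide whether the experiment should be fitted. Nor do they give the power for real probe sets at or near the floor. In the real data, changes of tested histone probe sets at 9 h lay between -1.30 and 1.95. Probe sets were named by rule: all variants, any past the threshold, and at each time the 6 cluster probe sets highest and the 6 lowest in change, if of 1 direction in both experiments and above the floor in each group. Of the other lists, members past the threshold and up to 4 with the largest shared change at 9 h were named. Members and lists were chosen with earlier results of these data known. Upstream sequences come from RefSeq, 1 per gene. Alternatives were other scaling, floor, filter, trend and pairing, and each array left out. Those for the genes of the other lists and for the H4 probe sets at the floor at 0 h were chosen after seeing the data.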

Additional observations from a re-analysis of the deposited data

How the results depend on the processing

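Probe sets carry the letters of the report. The number of histone probe sets past the threshold was 0 for each comparison under every alternative run except without the filter on low values. Without it 1 passed at 6 h against 0 h and 1 at 9 h against 6 h, in each case H1-6, whose 6 h arrays read nearly alike and whose others were at the floor (limma adjusted p = 0.0150 and 0.0207). With the replicate block the counts stayed at 0 in all 4 comparisons, and among the genes of the other lists TUT7 passed. Changes in unscaled values are given here relative to the shift of all probe sets. The cluster median at 6 h, 0.13, was 0.55 in unscaled values, 0.041 without the filter and between 0.0024 and 0.26 with 1 array left out, and that at 9 h, 0.25, was 0.029 without the filter and between 0.11 and 0.34 with 1 array left out, lowest without the 0 h array of experiment 1 (0.11) and 0.13 when that experiment's 9 h array was left out. The variant median at 6 h was -0.40 with median scaling. Of the values of single probe sets under an alternative, 50 changed sign, 1106 kept their sign and their side of the threshold, and that of TUT7 with the replicate block passed it. In unscaled values at 6 h, an H2A probe set shared by 2 genes and near the floor became 0.44, H3C7 0.32, H4C7 0.058, H1-10 -0.18 and H2AZ2 C -0.13. With median scaling H1-10 and H2AZ2 C became -0.18 and -0.13 at 6 h, and H4C7 0.014 at 9 h. With the lower floor H4C8 became -0.44 at 6 h. With the lot line of the labels as the block, H2AZ2 B became 0.12 and H3.3 B 0.11 at 6 h. Whichever array was left out, 6 of 38 named changes at 6 h and 12 of 51 at 9 h stayed within 1.5 times of the value reported, H4C5 at both times and H2AZ2 A, H2AX A, H3.3 A, ASF1B and TUT7 at 9 h among them; the others moved by more with at least 1 array left out. Of those that changed sign, the ranges at 6 h were -0.044 to 0.54 for H2AC25, -0.37 to 0.16 for H2BC12, -0.16 to 0.85 for H2BC5 A, -0.075 to 0.62 for H2BC6, -0.60 to 0.044 for H3C7, -0.83 to 0.88 for H4C8, -0.25 to 0.31 for H1-10, -1.501 to 0.32 for H2AX A, -0.092 to 0.23 for H2AX C, -0.96 to 0.24 for H2AZ1 B, -0.19 to 0.14 for H2AZ2 B and -0.33 to 0.62 for H2AZ2 C. For H3.3 they were -0.69 to 0.11 (E), -0.23 to 0.16 (B) and -0.53 to 0.35 (C). At 9 h they were -0.084 to 0.31 for H2BC12, -0.21 to 1.23 for H2BC13, -0.22 to 0.97 for H2BC5 B, -0.19 to 0.16 for H4C7, -0.15 to 1.504 for H4C8, -1.20 to 0.68 for H1-10, -0.36 to 0.42 for H2AX C, -0.81 to 0.093 for H2AZ1 A, -0.63 to 0.056 for H2AZ2 C, -0.89 to 0.19 for H3-3A, and -0.31 to 0.27 and -1.164 to 0.016 for H3.3 E and G. The cause of these changes was not tested. With 1 array left out a group holds 1 array, taken to vary like the others. Many cluster probe sets lie near the floor, where changes are understated.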
